A study of Homo sapiens with 96 samples.

Results

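Aminoacyl-tRNA synthetases join each amino acid to its tRNA before translation. To describe how Paeoniae Radix, the peony root of traditional medicine, changed the mRNAs of these enzymes, 36 synthetase genes were followed by RNA sequencing in A549 cells, an established human lung adenocarcinoma line. The genes were chosen by their symbols, and each matched 1 of the 60675 genes of the deposited count table. Of the 36, 20 encode cytosolic and 16 mitochondrial enzymes, and all 36 passed the filter on low counts in both batches of the study. The table uses older symbols without a final digit for the cytosolic enzymes (AARS, GARS, SARS and so on).

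Cells in the first batch received an ethanol extract or a water extract of the root at 20, 100 or 500 µg/mL, or vehicle. Batch 2 consisted of 8 single ingredients given at 0.4, 2 or 10 µM with a vehicle of its own. Hederagenin and oleanolic acid are triterpenes, gallic acid, catechin and paeonol are phenolic compounds, and paeoniflorin and albiflorin are monoterpene glycosides, with benzoic acid as the last. The 96 libraries formed 32 groups of 3, and every comparison with vehicle used the vehicle of the same batch. All cells were A549 cells without a stated genetic change. The sources used here give neither the kind of vehicle nor the length of exposure. The labels do not call the replicates separate cultures, so p-values reflect the spread between libraries of a group, which could be purely technical.

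Libraries held 17.9 to 28.1 M counts with the extracts and their vehicle, and 15.7 to 35.6 M with the ingredients and theirs. The common biological coefficient of variation of these batches was 0.0444 and 0.212, so a change of a given size passed the test far more easily with the extracts than with the ingredients. Mitochondrially encoded transcripts took 11.6 to 15.3% of counts in extract libraries, against 13.9 to 18.5% in their vehicle libraries. They took 0.486 to 15.5% in ingredient libraries, against 11.6 to 12.1% in vehicle libraries, and 18 ingredient libraries lay below 5%. The fibroblast collagen COL1A2 reached 496 to 595 CPM (counts per 1000000 counts of the library) in 4 libraries, replicate 2 of catechin at 2 and 10 µM and replicate 1 of gallic acid at 0.4 and 2 µM, and at most 0.899 CPM in the rest. Counts of synthetases past the threshold that rest on such libraries are given with and without them. In bulk RNA, fewer cells of a type and less RNA per cell cannot be told apart.

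Cytosolic synthetases charge the tRNAs that ribosomes in the cytosol use, whereas mitochondrial synthetases, also encoded in the nucleus, are imported to serve translation of the mitochondrial genome. Several cytosolic synthetases are held together with scaffold proteins in the multisynthetase complex. When uncharged tRNA or endoplasmic reticulum stress activates kinases of the initiation factor eIF2, the transcription factor ATF4 is made, and its known targets include amino acid transporters, amino acid synthesis enzymes and many cytosolic synthetases. ATF4 binds with C/EBP partners to a composite element that contains the letters TGATGNAA, where N is any base.

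These letters were searched on both strands of the promoter windows of RefSeq on GRCh38.p14, which run from 250 bases before to 50 bases after each gene's start. The sites are printed because the cytosolic enzymes that held them were among those whose mRNAs rose with the triterpene ingredients. Windows were found for 30 of the 36 genes and not for DARS, LARS, VARS, YARS, AARS2 and VARS2. Sites were found in 8 windows, and each is given 5′ to 3′ on the strand that reads TGATGNAA, with the motif in capitals.
AARS: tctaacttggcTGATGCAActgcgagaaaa
CARS: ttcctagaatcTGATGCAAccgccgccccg
GARS: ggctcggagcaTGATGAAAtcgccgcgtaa
IARS: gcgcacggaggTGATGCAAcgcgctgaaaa
MARS: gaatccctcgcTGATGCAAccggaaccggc
NARS: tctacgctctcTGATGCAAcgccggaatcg
TARS: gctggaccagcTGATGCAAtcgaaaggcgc
YARS2: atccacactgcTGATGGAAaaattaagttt
The AARS site lay at chr16:70289675-70289704 on the plus strand and the CARS site at chr11:3057407-3057436 on the plus strand. The GARS site lay at chr7:30594834-30594863 on the minus strand and the IARS site at chr9:92293692-92293721 on the plus strand. The MARS site lay at chr12:57488053-57488082, the NARS site at chr18:57621804-57621833, the TARS site at chr5:33440956-33440985 and the YARS2 site at chr12:32756076-32756105, all on the minus strand. In 6 of the 7 cytosolic genes the letters began within 50 bases of the RefSeq start that defines the window, and in AARS they began 187 bases before it. Gene positions given elsewhere are those of GENCODE v29, whose starts can differ from the RefSeq starts. Some genes have more than 1 window, so shares are given over genes. Of the cytosolic genes with a window, 7 of 16 held the letters in at least 1 (43.8%), against 1 of 14 mitochondrial genes (7.14%) and 1217 of all 27305 genes with a window (4.46%). A match of letters is a description of the sequence and does not show that a factor binds there.

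In vehicle cells the cytosolic enzymes were the more abundant class. Per kilobase of exonic length, the 20 cytosolic genes had a median of 26.9 CPM in the first batch (5.38 to 56.2) and 26.2 CPM in the second (6.29 to 60.9). The 16 mitochondrial genes had medians of 5.23 CPM per kilobase (1.92 to 44.2) and 5.69 CPM per kilobase (1.81 to 49.9). The alanine enzyme AARS was the highest cytosolic gene on this scale and the cysteine enzyme CARS the lowest, in both batches. IARS2, which charges mitochondrial isoleucine tRNA, was the highest mitochondrial gene and stood in the upper part of the cytosolic range.

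Hederagenin and oleanolic acid at 10 µM each raised 11 cytosolic synthetases and no mitochondrial one. With hederagenin, 11 of 20 cytosolic genes rose and 0 fell in edgeR's quasi-likelihood test with Benjamini-Hochberg adjustment, where 2.42% of all 18324 genes tested were called (1.56% higher). With oleanolic acid the count was again 11 of 20 higher and 0 lower, where 4.45% of all genes were called (2.58% higher). The median log2 change of the cytosolic genes was 0.44 with hederagenin and 0.47 with oleanolic acid, against a median of 0.01 over all genes in both comparisons. The mitochondrial genes had a median of 0.02 with each triterpene, and 0 of 16 passed the test. At an unadjusted p under 0.05 there were 3 mitochondrial genes with hederagenin (CARS2, WARS2 and YARS2) and 1 with oleanolic acid (PARS2). Both comparisons share the vehicle libraries, so the values of each are given side by side.

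**Figure D1:**
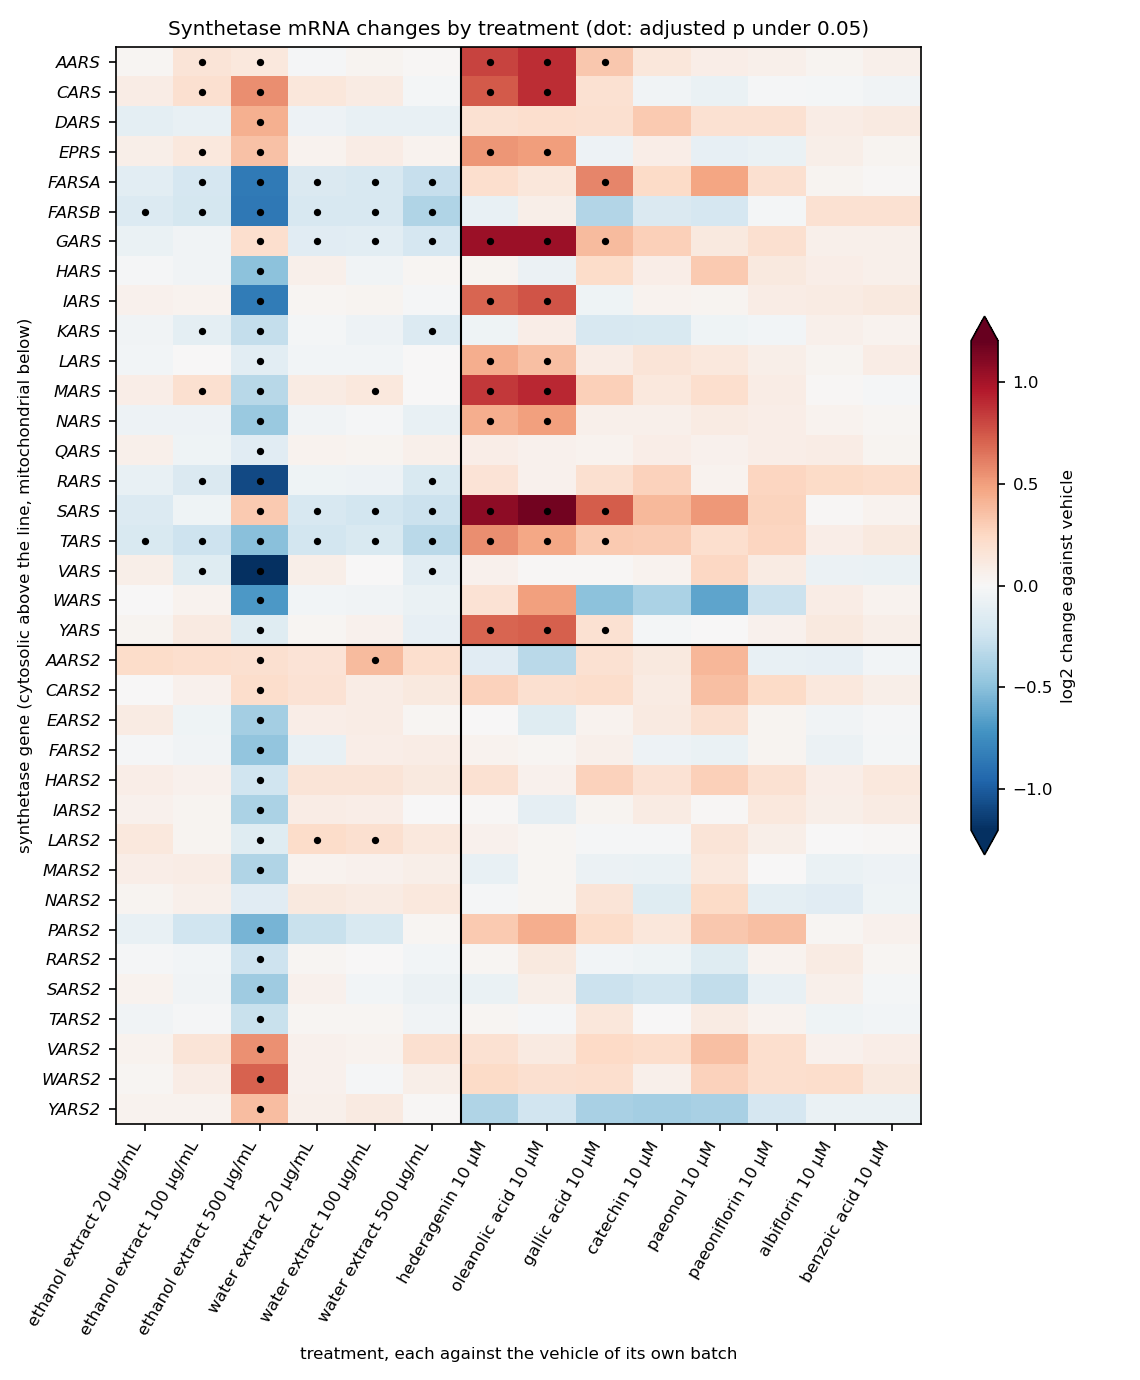
Log2 change against the vehicle of the same batch for the 36 synthetases (cytosolic above the horizontal line, mitochondrial below) in the 6 extract groups and the 8 ingredients at 10 µM; black dots mark an edgeR adjusted p under 0.05. Dots fill the column of ethanol extract at 500 µg/mL except NARS2, and stand beside 11 cytosolic genes with each of hederagenin and oleanolic acid.

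The serine enzyme SARS (chromosome 1, 109213918 to 109238169, plus strand) and the glycine enzyme GARS (chromosome 7, 30594681 to 30634033, plus strand) rose most. SARS had 145, 180 and 172 CPM with hederagenin at 10 µM and 163, 173 and 193 CPM with oleanolic acid, against 75.8, 81.2 and 80.1 CPM in vehicle. GARS, whose gene gives both the cytosolic and the mitochondrial enzyme, had 343, 398 and 376 CPM with hederagenin and 371, 351 and 393 CPM with oleanolic acid, against 182, 178 and 185 CPM in vehicle. Every triterpene library of both genes lay above every vehicle library. By edgeR the log2 change of SARS was 1.07 ± 0.17 (SE) with hederagenin (adjusted p = 3.21e-05) and 1.16 ± 0.17 with oleanolic acid (adjusted p = 3.19e-06). For GARS it was 1.03 ± 0.10 with each compound (edgeR adjusted p = 5.11e-11 with hederagenin and 2.97e-11 with oleanolic acid).

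AARS, the alanine enzyme, had 466, 504 and 473 CPM with hederagenin and 501, 493 and 535 CPM with oleanolic acid, against 275, 273 and 274 CPM in vehicle. MARS, the methionine enzyme of the multisynthetase complex, had 432, 423 and 499 CPM with hederagenin and 434, 458 and 512 CPM with oleanolic acid, against 254, 243 and 256 CPM in vehicle. CARS, the cysteine enzyme, had 103, 106 and 108 CPM with hederagenin and 119, 118 and 113 CPM with oleanolic acid, against 61.2, 64.5 and 63.6 CPM in vehicle. The groups did not overlap for any of the 3 genes. Log2 changes were 0.81 with hederagenin and 0.89 with oleanolic acid for AARS, 0.85 and 0.90 for MARS, and 0.74 and 0.89 for CARS in the same order. MARS shares 355 exonic bases with DDIT3 on the opposite strand. DDIT3 counts came to 2.98% of those of MARS.

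IARS, the isoleucine enzyme of the complex, had 581, 543 and 549 CPM with hederagenin and 582, 572 and 577 CPM with oleanolic acid, against 346, 339 and 348 CPM in vehicle. YARS, the tyrosine enzyme, had 223, 231 and 226 CPM with hederagenin and 232, 227 and 231 CPM with oleanolic acid, against 134, 137 and 146 CPM in vehicle. TARS, the threonine enzyme, had 283, 312 and 279 CPM with hederagenin and 283, 264 and 266 CPM with oleanolic acid, against 196, 201 and 194 CPM in vehicle. All triterpene libraries again lay above all vehicle libraries. YARS shares 396 exonic bases with S100PBP on the opposite strand, whose counts came to 14% of those of YARS. The remaining 3 genes past the test were EPRS, the fused glutamate and proline enzyme (0.53 with hederagenin and 0.50 with oleanolic acid), LARS for leucine (0.44 and 0.36) and NARS for asparagine (0.44 and 0.49). Their edgeR adjusted p ranged up to 0.000562 with hederagenin and 0.00379 with oleanolic acid, both for LARS.

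The 9 cytosolic genes that did not pass with either triterpene were DARS, FARSA, FARSB, HARS, KARS, QARS, RARS, VARS and WARS, which charge aspartate, phenylalanine (both subunits), histidine, lysine, glutamine, arginine, valine and tryptophan tRNAs. VARS, for example, had a log2 change of 0.05 (95% interval -0.24 to 0.34) with hederagenin and 0.01 (-0.28 to 0.31) with oleanolic acid. WARS was too variable to place, with 145, 129 and 93.7 CPM with hederagenin and 173, 171 and 113 CPM with oleanolic acid, against 106, 107 and 112 CPM in vehicle. The lowest WARS library of each triterpene was replicate 3, which also had the lowest mitochondrially encoded share of its group (2.54% and 2.97%). The part of that share in the WARS value was not tested. Both structural classes of synthetase were among the genes that rose, with 5 of 9 class I genes and 5 of 10 class II genes, besides EPRS, which holds a domain of each. Of the 8 enzymes of the multisynthetase complex 4 rose, and of the 12 others 7 rose, with both triterpenes.

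Of the cytosolic genes that rose with both triterpenes and had a promoter window, 7 of 9 held the letters TGATGNAA (77.8%), and EPRS and SARS did not. None of the other 7 cytosolic genes with a window held them. Among known ATF4 targets outside the synthetases, 7 of 23 genes with a window held them (30.4%), against 4.46% of all genes with a window. These shares are counts over genes with windows of one length, and the search was made with the response of the genes known.

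Known ATF4 targets outside the synthetases rose beside them. Of 28 listed targets, 18 rose and 0 fell with hederagenin at 10 µM (median log2 change 0.81), and 20 rose and 0 fell with oleanolic acid (median 1.13), against 2.42% and 4.45% of all genes called. The secreted glycoprotein gene STC2 changed by 2.59 ± 0.23 with hederagenin and 2.81 ± 0.24 with oleanolic acid (edgeR adjusted p = 6.56e-12 and 3.77e-13). CHAC1, which degrades glutathione, changed by 2.70 ± 0.30 and 3.08 ± 0.30 (edgeR adjusted p = 3.98e-09 and 4.44e-11). The transporter SLC1A4 (0.88 and 1.14), the serine synthesis enzyme PSAT1 (1.08 and 1.24) and the proline synthesis enzyme PYCR1 (0.71 and 0.89) rose as well. ATF4 itself rose by 0.84 ± 0.24 with hederagenin (edgeR adjusted p = 0.047) and 0.89 ± 0.24 with oleanolic acid (edgeR adjusted p = 0.0201), and was the 1 gene of 9 in the list of amino acid sensing and stress kinases that passed.

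Few genes of the other groups around the synthetases passed the test with the triterpenes. None of the 3 scaffold genes of the multisynthetase complex and none of 11 genes of tRNA export, delivery and editing passed with either compound. Of 19 mitochondrial tRNA and translation factors, 1 rose with each, the initiation factor MTIF2 (0.37 with hederagenin and 0.34 with oleanolic acid). Of 12 endoplasmic reticulum chaperones, 0 passed with hederagenin and 1 rose with oleanolic acid (HERPUD1, 0.61). None of the 8 epithelial and A549 markers passed with either, nor did any of the 7 fibroblast markers with enough counts or the 1 blood or endothelial marker tested. The mitochondrially encoded mRNAs had a median log2 change of -1.14 with hederagenin and -0.53 with oleanolic acid, and 0 of 13 passed.

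All 11 genes had a smaller change at 2 µM than at 10 µM with each compound. With hederagenin, GARS had 182, 178 and 185 CPM in vehicle, 232, 199 and 235 CPM at 0.4 µM, 244, 235 and 241 CPM at 2 µM and 343, 398 and 376 CPM at 10 µM. With oleanolic acid it had 210, 199 and 197 CPM at 0.4 µM, 288, 248 and 259 CPM at 2 µM and 371, 351 and 393 CPM at 10 µM. At each dose all libraries lay above all vehicle libraries. The same held for GARS at each dose of paeonol, paeoniflorin and gallic acid, and its log2 change was above 0 in all 24 ingredient comparisons. At 0.4 µM this separation was thus not particular to the triterpenes. At 2 µM, all 11 genes had every treated library above every vehicle library with each compound. That was the case for 16.4% of all genes with hederagenin and 16.5% with oleanolic acid, and these genes were chosen by their rise at 10 µM against the same vehicle libraries.

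At 2 µM, 4 of these genes passed the test with oleanolic acid, where 0.322% of all genes were called. They were GARS (0.54 ± 0.10, edgeR adjusted p = 0.00128), AARS (0.42 ± 0.06, 6.55e-05), CARS (0.42 ± 0.07, 0.000114) and YARS (0.40 ± 0.06, 4.17e-05). With hederagenin at 2 µM 0 of 36 passed (0.0546% of all genes called, 1065 of 18324 with an unadjusted p under 0.05), and the 11 genes had log2 changes between 0.17 and 0.40. Of the 28 ATF4 targets, 9 rose with oleanolic acid at 2 µM. DESeq2's Wald test called 5 with hederagenin at 2 µM (AARS, CARS, GARS, TARS and YARS). At 0.4 µM 0 of 36 passed with either compound, where 3.05% of all genes were called with hederagenin (5219 with an unadjusted p under 0.05) and 0.18% with oleanolic acid (895). DESeq2 called 4 with hederagenin at this dose. The median of the 11 genes was then 0.10 with each, ranging over -0.13 to 0.50 with hederagenin and -0.06 to 0.20 with oleanolic acid. Hederagenin at 0.4 µM included 2 libraries with a mitochondrially encoded share of 2.16% and 1.55%, and its replicates were spread more widely. With such libraries left out, 1 remained in the group and 5 genes passed, GARS, SARS and TARS higher and NARS2 and YARS2 lower. Leaving out the libraries high in COL1A2, none of them of these groups, gave 2 genes higher with hederagenin at each of 0.4 and 2 µM and 6 higher with oleanolic acid at 2 µM.

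**Figure D2:**
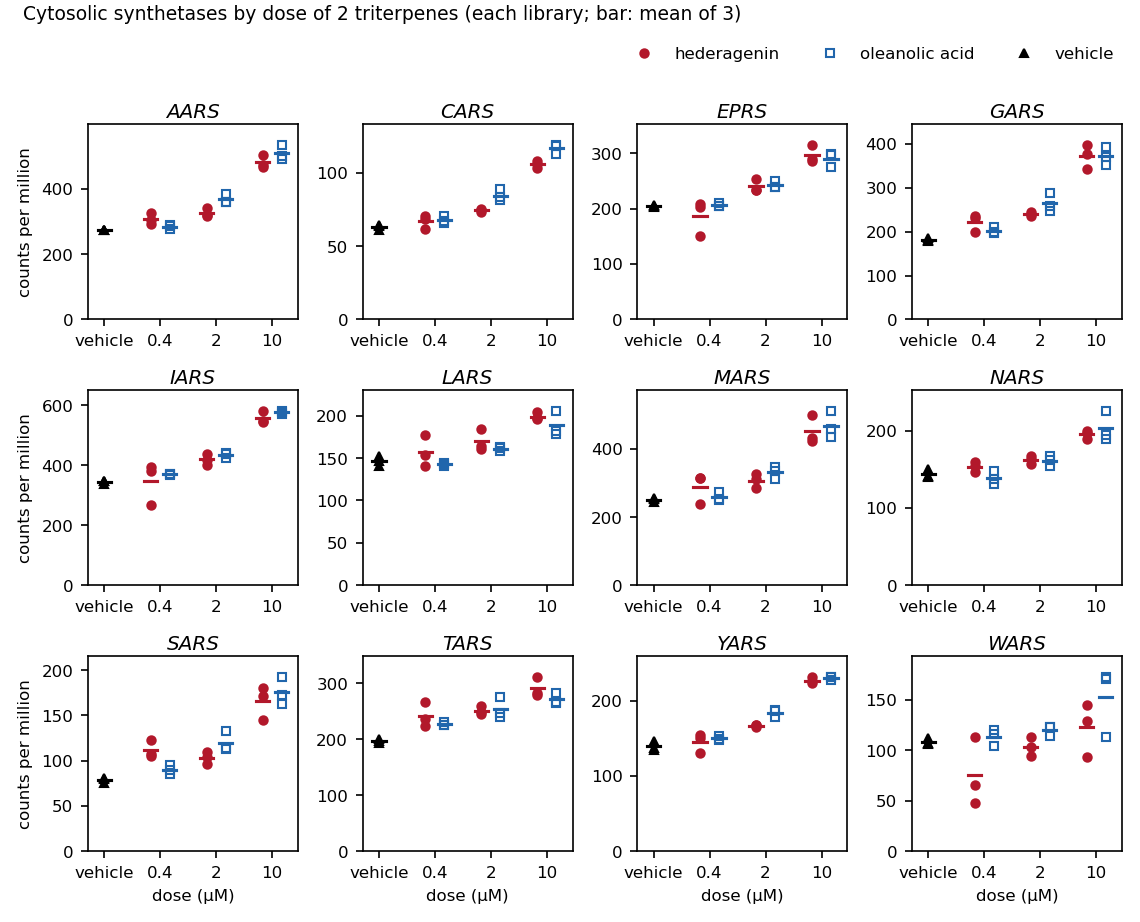
CPM (vertical axis, from 0) in every library for the 11 cytosolic synthetases that rose with both triterpenes at 10 µM and for WARS, by dose of hederagenin (filled circles) and oleanolic acid (open squares) beside vehicle (triangles); bars are means of 3 libraries. GARS runs from 178 to 185 CPM in vehicle to between 343 and 398 CPM at 10 µM, and WARS overlaps vehicle with hederagenin.

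Summed over the class, the 20 cytosolic genes took 4316 ± 43.2 CPM with hederagenin at 10 µM and 4410 ± 70.4 CPM with oleanolic acid, against 2953 ± 30 CPM in vehicle (mean ± SD, n = 3 each). At 2 µM the sums were 3418 ± 78.9 CPM with hederagenin and 3584 ± 62.5 CPM with oleanolic acid, and at 0.4 µM 3207 ± 113 and 3112 ± 20 CPM. The 16 mitochondrial genes summed to 568 ± 17.7 CPM with hederagenin at 10 µM and 549 ± 19.6 CPM with oleanolic acid, against 562 ± 5.96 CPM in vehicle. At 10 µM the mitochondrial sums thus overlapped vehicle while the cytosolic sums did not. A cytosolic sum above vehicle was not particular to the triterpenes. Every ingredient library lay above the highest vehicle library (2987 CPM), the lowest at 3017 CPM with albiflorin at 0.4 µM. The triterpene means at 0.4 µM lay within the range of group means of the other ingredients (3045 to 3256 CPM).

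**Figure D3:**
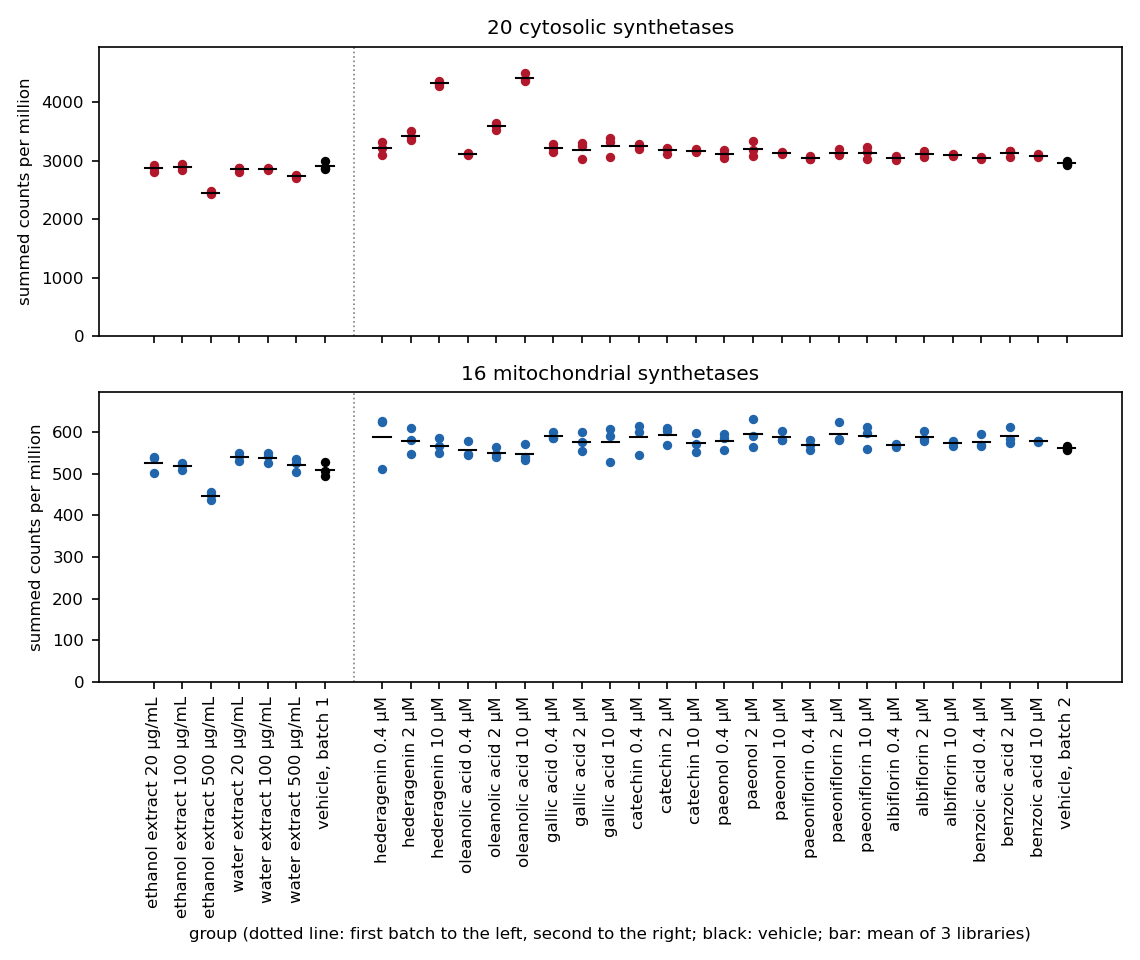
Summed CPM of the 20 cytosolic (top) and 16 mitochondrial (bottom) synthetases in each library of the 32 groups, with vehicle in black at the right of each batch and bars at the mean of 3 libraries. Hederagenin and oleanolic acid at 10 µM stand above all other groups in the upper panel, at 4316 and 4410 CPM, and ethanol extract at 500 µg/mL is the lowest group in both panels.

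The counts of synthetases raised by the triterpenes did not rest on 1 library. Leaving out each of the 6 libraries of a comparison in turn gave 11 genes every time with hederagenin and 10 or 11 with oleanolic acid, where LARS missed the threshold once (adjusted p 0.073). Without the 18 libraries under 5% mitochondrially encoded counts, which removed replicate 3 of each triterpene at 10 µM, all 11 still passed with both compounds. The synthetases past the threshold were then 13 with hederagenin, where CARS2 rose and YARS2 fell beside the 11. They were 17 with oleanolic acid, where WARS, CARS2, PARS2 and RARS2 rose and AARS2 and EARS2 fell beside the 11. At 2 µM 11 rose with hederagenin (RARS in place of NARS) and 10 with oleanolic acid without those libraries, although none of them belonged to these groups.

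Hederagenin is oleanolic acid with an additional hydroxyl group, and the pair was compared directly at each dose. No synthetase differed past the threshold at 0.4, 2 or 10 µM, where 0, 0 and 0.0109% of all genes were called in edgeR (3211, 346 and 578 genes with an unadjusted p under 0.05), and DESeq2 called 0 synthetases as well. At 10 µM the median difference of the cytosolic genes (hederagenin minus oleanolic acid) was -0.02 on the log2 scale. GARS differed by 0.00 (95% interval -0.20 to 0.20), SARS by -0.09 (-0.43 to 0.25) and CARS by -0.14 (-0.28 to -0.01). For the 11 genes that rose with both, the intervals together ran from -0.43 to 0.29. The widest interval among the cytosolic genes was that of WARS (-0.31, -1.09 to 0.46), so a sizeable difference in WARS could not be seen here. At 2 µM the differences of the 11 genes lay between -0.22 and 0.07, with intervals from -0.56 to 0.24.

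The ethanol extract at 500 µg/mL changed nearly every synthetase and lowered most of them. Of the 20 cytosolic genes 6 rose and 14 fell, and of the 16 mitochondrial genes 5 rose and 10 fell, where 69.1% of all 16854 genes tested were called (34.7% higher and 34.4% lower). With so many genes called, the share of synthetases past the threshold says little by itself, and the sizes are the measurement. The median log2 change was -0.31 for the cytosolic and -0.24 for the mitochondrial genes. NARS2, the mitochondrial asparagine enzyme, was the 1 gene that did not pass (-0.14, edgeR adjusted p = 0.141). The cytosolic sum was 2455 ± 19.1 CPM with the extract, against 2907 ± 79.2 CPM in vehicle, and the mitochondrial sum 448 ± 9.2 CPM, against 511 ± 16.4 CPM in vehicle.

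VARS, the valine enzyme (chromosome 6, 31777518 to 31795953, minus strand), fell most. It had 36.3, 33.4 and 37.3 CPM with the ethanol extract at 500 µg/mL, against 99, 103 and 101 CPM in vehicle (log2 change -1.50 ± 0.04, edgeR adjusted p = 1.06e-18). RARS, the arginine enzyme of the multisynthetase complex (chromosome 5, 168486445 to 168519299, plus strand), had 51.9, 53.2 and 52.3 CPM with the extract, against 105, 122 and 106 CPM in vehicle (-1.08 ± 0.05, edgeR adjusted p = 8.51e-15). The groups lay far apart for both genes, and the extract libraries of RARS were within a few CPM of each other.

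Both subunits of the phenylalanine enzyme fell together. FARSB, the beta subunit, had 59.8, 60.9 and 59.9 CPM with the extract, against 109, 109 and 110 CPM in vehicle (-0.86 ± 0.05, edgeR adjusted p = 7.72e-14). FARSA, the alpha subunit, had 33.3, 31.2 and 33.5 CPM with the extract, against 57.1, 60 and 60.2 CPM in vehicle (-0.85 ± 0.05, edgeR adjusted p = 2.06e-12). IARS had 191, 194 and 189 CPM with the extract, against 340, 349 and 336 CPM in vehicle (-0.84 ± 0.03, edgeR adjusted p = 1.45e-16). No extract library of these genes reached the vehicle range. WARS for tryptophan (-0.69), TARS (-0.50), HARS for histidine (-0.49), NARS (-0.45) and MARS (-0.33) fell less. KARS for lysine (-0.29), YARS (-0.15), QARS for glutamine (-0.14) and LARS (-0.13) completed the 14 genes that fell. HARS shares 437 exonic bases with HARS2 and 221 with WDR55 on the opposite strand, and the 2 histidine genes are paralogs, so their values are uncertain.

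Among the cytosolic genes CARS rose most, with 79.9, 80.9 and 78.7 CPM with the extract, against 54.5, 54.9 and 52.6 CPM in vehicle (0.56 ± 0.05, edgeR adjusted p = 1.13e-10). DARS for aspartate (0.43 ± 0.04, edgeR adjusted p = 3.52e-09) and EPRS (0.35 ± 0.04, 3.76e-08) followed. SARS had 109, 110 and 110 CPM with the extract, against 81.5, 92.4 and 92.4 CPM in vehicle (0.31 ± 0.05, edgeR adjusted p = 2.81e-05). GARS had 214, 210 and 214 CPM, against 183, 194 and 181 CPM in vehicle (0.20 ± 0.04, edgeR adjusted p = 5.06e-05), and AARS changed by 0.13. Of the 11 genes that rose with both triterpenes, 5 also rose with this extract (AARS, CARS, EPRS, GARS and SARS) and 6 fell (IARS, LARS, MARS, NARS, TARS and YARS). The triterpenes and the extract were measured in different batches, and the difference between them was not tested.

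**Figure D4:**
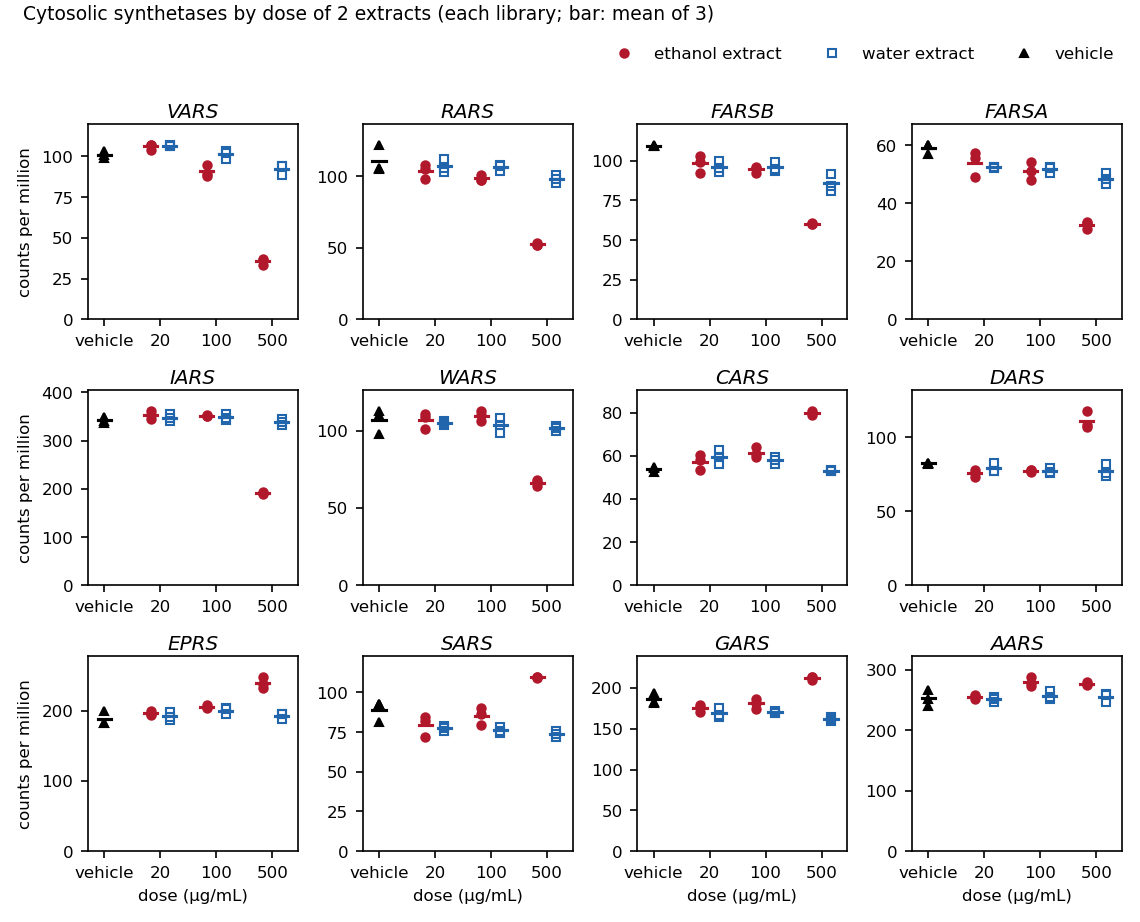
CPM (vertical axis, from 0) in every library for 12 cytosolic synthetases by dose of ethanol extract (filled circles) and water extract (open squares) beside vehicle (triangles); bars are means of 3 libraries. For VARS (33.4 to 37.3 CPM) and CARS (78.7 to 80.9 CPM) the ethanol libraries at 500 µg/mL stand apart from all others.

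The cytosolic and mitochondrial enzymes for the same amino acid were then set side by side. Of 17 pairings of a cytosolic gene with its mitochondrial counterpart, 16 had both genes past the threshold with the ethanol extract at 500 µg/mL. Every synthetase but NARS2 passed there, as did 69.1% of all genes. Of the 16, 10 moved the same way and 6 in opposite directions. As most genes of both classes fell, this split does not show whether paired enzymes move together. EPRS was paired with both EARS2 and PARS2, and FARS2 with both FARSA and FARSB. VARS changed by -1.50 and VARS2 by 0.55 ± 0.07 (edgeR adjusted p = 1.23e-07). WARS changed by -0.69 and WARS2 by 0.71 ± 0.08 (edgeR adjusted p = 2.35e-08). YARS changed by -0.15 and YARS2 by 0.37, whereas EPRS rose by 0.35 and its mitochondrial counterparts EARS2 for glutamate (-0.41) and PARS2 for proline (-0.56) fell. SARS (0.31) and SARS2 (-0.43) were likewise opposed.

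In the other 10 both genes moved one way. AARS and AARS2 (0.19) rose, as did CARS and CARS2 (0.21). Both members fell in 8 pairings, in which FARS2 changed by -0.47, IARS2 by -0.38, MARS2 by -0.36, TARS2 by -0.27, RARS2 by -0.25, HARS2 by -0.24 and LARS2 by -0.15. GARS and KARS have no separate mitochondrial gene, and mitochondrial glutamine tRNA is charged through EARS2 and an amidotransferase. VARS2 shares 1858 exonic bases with GTF2H4 on the same strand and SARS2 1492 with AC011455.2, so both are uncertain. On the opposite strand SARS2 shares 349 with MRPS12, EARS2 370 with UBFD1 and WARS2 180 with AL359915.2. HARS2 shares 152 with ZMAT2 on the same strand. EARS2, WARS2 and HARS2 are thus uncertain too. Also on the opposite strand, YARS shares 396 with S100PBP, CARS2 326 with ING1, WARS 287 with WDR25 and KARS 176 with TERF2IP. The values of these genes are uncertain in the same way. With each triterpene at 10 µM, 0 of the 17 pairings had both genes past the threshold and 11 had the cytosolic gene alone.

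**Figure D5:**
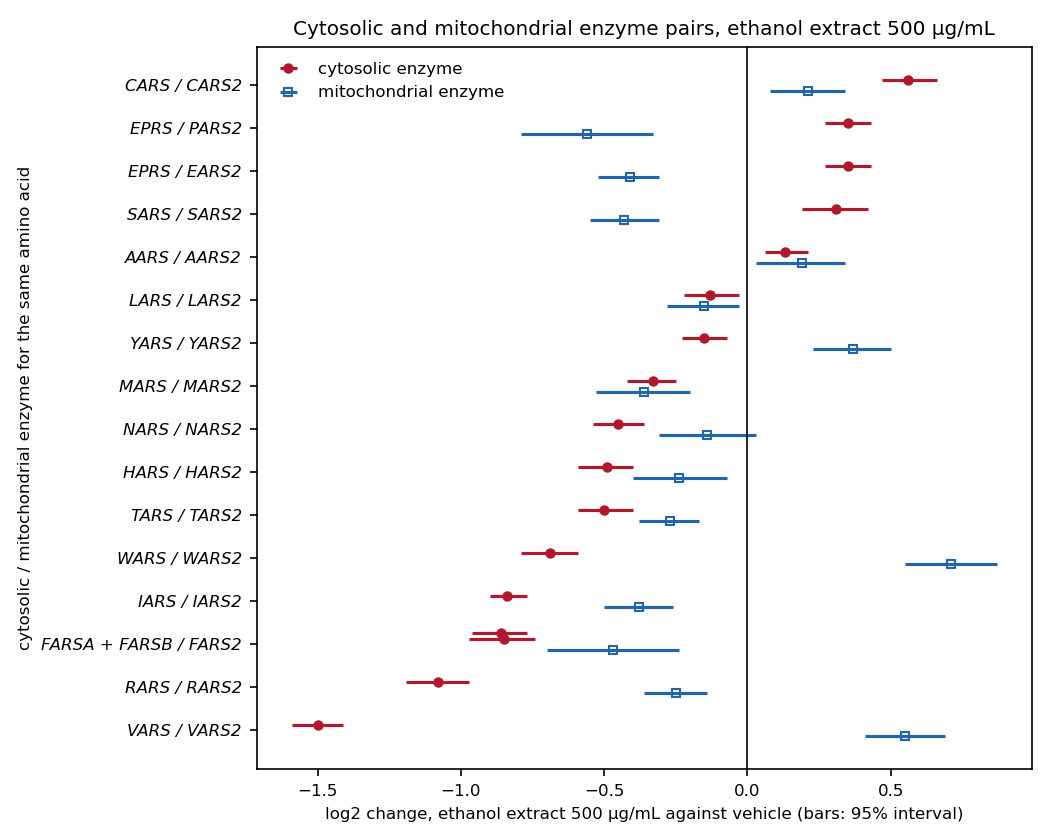
Log2 change between ethanol extract at 500 µg/mL and vehicle (horizontal axis; bars are 95% intervals) for cytosolic enzymes (filled circles) and the mitochondrial enzyme of the same amino acid (open squares). VARS and VARS2 are farthest apart, at -1.50 and 0.55, and NARS2 is the 1 gene whose interval crosses 0.

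Many genes that work with the synthetases fell as well, where 34.4% of all genes were called lower and 34.7% higher. All 3 scaffold genes of the multisynthetase complex fell with the ethanol extract at 500 µg/mL, with log2 changes of -1.11 ± 0.06 for AIMP2, -0.89 ± 0.06 for AIMP1 and -0.62 ± 0.06 for EEF1E1 (edgeR adjusted p = 3.41e-14, 5.58e-12 and 2.84e-09). Of the 8 synthetases of the complex, 6 fell and 2 rose (DARS and EPRS). The 11 genes of tRNA export, delivery and editing moved both ways, and 2 rose and 5 fell, not far from the shares over all genes. The tRNA exportin XPOT changed by -1.01, the elongation factor subunits EEF1G by 0.46 and EEF1A1 by 0.40, and TRNT1, which adds the CCA end to tRNAs, by -0.55. Of 19 mitochondrial tRNA and translation factors, 15 fell and 0 rose (median -0.47). Among these were GFM2 for ribosome recycling (-1.18), MTIF2 (-0.74), the tRNA 3′ processing enzyme ELAC2 (-0.47) and the amidotransferase subunit GATC (-0.51). Of the 13 mitochondrially encoded mRNAs 12 fell (median -0.59). With the water extract at 500 µg/mL 12 also fell (median -0.53), where 21.1% of all genes were called.

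Most listed ATF4 targets rose in this comparison while most synthetases fell. Over all genes, 34.7% were called higher and 34.4% lower. Of 28 targets 18 rose and 6 fell (median 0.62). STC2 changed by 3.45 ± 0.08, the pseudokinase TRIB3 by 2.04 ± 0.05, asparagine synthetase ASNS by 0.93 ± 0.04 and DDIT4 by 0.94 ± 0.04 (edgeR adjusted p at most 7.36e-15). ATF4 changed by 0.78 ± 0.04, the eIF2 kinase EIF2AK3 by 1.21, the phosphatase subunit PPP1R15A by 1.31 and EIF2S1, the alpha subunit of eIF2, by -0.63. In that list of 9 genes of amino acid sensing and stress kinases 4 rose and 3 fell, not far from the shares over all genes. Of 12 endoplasmic reticulum chaperones 3 rose and 8 fell, among them HERPUD1 at 1.33, DNAJC3 at 0.98, HSP90B1 at -0.95 and HSPA5 at -0.59. Of the 8 epithelial and A549 markers 7 fell (median -0.53, with ALDH1A1 at -1.12, KRT8 at -0.71, KRT18 at -0.60 and EPCAM at -2.13), and 3 of 6 fibroblast markers with enough counts fell. The part of these markers in the synthetase values was not tested.

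At lower doses of the ethanol extract the changes were small. At 100 µg/mL, 4 cytosolic genes rose and 6 fell (17.5% of all genes called), and 0 of 16 mitochondrial genes passed (3 at an unadjusted p under 0.05). CARS (0.19), MARS (0.19), AARS (0.15) and EPRS (0.13) rose, and TARS (-0.25), FARSB (-0.21), FARSA (-0.20), RARS (-0.17), VARS (-0.15) and KARS (-0.12) fell. The count was 6 without replicate 1 of this group and 6 when only these groups were fitted. Of the 28 ATF4 targets 12 rose and 0 fell at this dose, and 9 of 12 endoplasmic reticulum chaperones rose. At 20 µg/mL FARSB (-0.16) and TARS (-0.18) fell (5.56% of the 36 synthetases), where 7.45% of all genes were called. Neither passed without vehicle replicate 2 or without replicate 1 of the group, and 1 passed without vehicle replicate 3 or replicate 2 of the group. Of the mitochondrial genes 0 passed at this dose (2 at an unadjusted p under 0.05), and 1 did without replicate 3 of the group.

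The water extract lowered a smaller set of cytosolic genes, and none by more than 0.36 on the log2 scale. At 500 µg/mL, 8 fell and 0 rose (21.1% of all genes called), with a cytosolic median of -0.09 and a mitochondrial median of 0.07. The 8 were 40% of the cytosolic genes and 22.2% of all 36 synthetases, the latter close to the share over all genes. FARSB had 81.1, 84 and 91.9 CPM with the water extract, against 109, 109 and 110 CPM in vehicle (-0.36 ± 0.05, edgeR adjusted p = 1.13e-05). FARSA had 50.5, 46.6 and 48.4 CPM, against 57.1, 60 and 60.2 CPM in vehicle (-0.28 ± 0.05, edgeR adjusted p = 0.000581). Both subunits were below the vehicle range in every library. TARS (-0.32), SARS (-0.26), GARS (-0.20), RARS (-0.18), KARS (-0.16) and VARS (-0.13) also fell. FARSB and TARS passed as lower in all 6 extract groups, each set against the same vehicle libraries. Their fall was thus not particular to the water extract, and the part of the vehicle libraries in it was not tested. No mitochondrial gene passed (0 of 16, with 3 at an unadjusted p under 0.05), although 1 did without vehicle replicate 3 and 2 without replicate 3 of the group.

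At 100 µg/mL of the water extract the calls were as many as at 500 µg/mL, 8 in all, and in both directions. At 100 µg/mL SARS (-0.22), FARSA (-0.19), FARSB (-0.19), TARS (-0.18) and GARS (-0.13) fell and MARS (0.13) rose, where 12.6% of all genes were called. Of the mitochondrial genes AARS2 (0.38) and LARS2 (0.19) rose. The cytosolic count of 6 was 3 without vehicle replicate 3 and 2 without replicate 2 of the group, and the mitochondrial count was 1 without any one of 5 of the 6 libraries. At 20 µg/mL TARS (-0.22), FARSB (-0.19), SARS (-0.19), FARSA (-0.17) and GARS (-0.14) fell and LARS2 (0.22) rose, where 9.51% of all genes were called. The cytosolic count of 5 was 1 without replicate 1 or 2 of the group and 3 without vehicle replicate 2 or 3, and LARS2 was lost without replicate 1 or 2 of the group or vehicle replicate 1.

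At 500 µg/mL the ethanol extract was then set directly against the water extract. Of the 20 cytosolic genes 6 were higher and 13 lower with the ethanol extract, and of the 16 mitochondrial genes 3 were higher and 11 lower, where 66.1% of all genes were called. VARS (-1.37 ± 0.04), RARS (-0.90 ± 0.05) and IARS (-0.82 ± 0.03) were lowest with the ethanol extract, followed by WARS (-0.61), FARSA (-0.57), HARS (-0.52) and FARSB (-0.51). CARS (0.59), SARS (0.57), DARS (0.52), GARS (0.39), EPRS (0.31) and AARS (0.12) were higher. SARS had 109, 110 and 110 CPM with the ethanol extract, against 75.8, 72 and 74 CPM with the water extract (edgeR adjusted p = 3.56e-09). GARS had 214, 210 and 214 CPM, against 160, 162 and 164 CPM with the water extract (edgeR adjusted p = 1.82e-09). At this dose both lay above vehicle with the ethanol extract and below it with the water extract. Each had a log2 change below 0 in 5 of the 6 extract groups, all but the ethanol extract at 500 µg/mL.

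Among mitochondrial genes WARS2 (0.64), VARS2 (0.36) and YARS2 (0.36) were higher with the ethanol extract, and PARS2 (-0.59), FARS2 (-0.56), EARS2 (-0.43), MARS2 (-0.43) and IARS2 (-0.38) were among the 11 lower. YARS, AARS2 and CARS2 did not pass. All 3 scaffold genes (median -0.85) and 14 of 19 mitochondrial tRNA and translation factors were lower with the ethanol extract, and 5 of 11 genes of tRNA export, delivery and editing were lower and 2 higher. Of the ATF4 targets 19 of 28 were higher and 7 lower, and 3 of 12 chaperones were higher and 7 lower. For all these lists, 66.1% of all genes were called in either direction. At 100 µg/mL 1 gene differed between the extracts, VARS (-0.15, edgeR adjusted p = 0.0475), where 1.77% of all genes were called. It no longer passed without any one of 5 of the 6 libraries, namely replicate 1 or 3 of the ethanol group or any of the 3 water libraries. At 20 µg/mL 0 of 36 differed, 0% of all genes were called in edgeR, 735 genes had an unadjusted p under 0.05, and DESeq2 called 0 synthetases.

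Gallic acid at 10 µM raised 6 cytosolic genes in the test, but its replicates were split. SARS had 171, 90.7 and 133 CPM with gallic acid in replicates 1 to 3, against 75.8, 81.2 and 80.1 CPM in vehicle (0.73 ± 0.17, edgeR adjusted p = 0.00476). FARSA had 112, 61 and 88.9 CPM, against 57.9, 58.3 and 57.4 CPM in vehicle (0.59 ± 0.18, edgeR adjusted p = 0.0281). Replicates 1 and 3 were high for both genes and replicate 2 was near vehicle. GARS (0.38), AARS (0.32), TARS (0.31) and YARS (0.18) also passed, where 13.5% of all genes were called (8.51% higher). The 6 were 30% of the cytosolic genes and 16.7% of all 36 synthetases, the latter close to the share over all genes.

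The mitochondrially encoded share of the gallic acid libraries was 1.44, 15.5 and 2.07% in the same order, against 11.6 to 12.1% in vehicle, and its part in these values was not tested. The count of 6 was 0 without replicate 1, 13 without replicate 2, 3 without vehicle replicate 1 or 3, and 2 without vehicle replicate 2. It was also 0 without the libraries under 5%, which left replicate 2 alone in the group, assumed to vary like the other groups. In this comparison 10 of 12 endoplasmic reticulum chaperones rose (median 0.92), as did 2 of 3 scaffold genes and 4 of 11 genes of tRNA export, delivery and editing. Of the ATF4 targets 6 rose and 1 fell, where 13.5% of all genes were called.

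Gallic acid carries hydroxyl groups on its ring that benzoic acid lacks. Against benzoic acid at 10 µM, 5 synthetases were higher with gallic acid, where 8.7% of all genes were called. SARS had 171, 90.7 and 133 CPM with gallic acid, against 82.2, 79.6 and 81.3 CPM with benzoic acid (0.70, 95% interval 0.36 to 1.04, edgeR adjusted p = 0.012). FARSA (0.58), GARS (0.32), AARS (0.26) and CARS (0.22) were the other 4, with edgeR adjusted p between 0.0136 and 0.0412. Without the libraries under 5% the count was 0, and GARS alone was then higher with gallic acid at 0.4 µM. Over all 9 comparisons of related compounds, which called these 5 alone, 0 were called without replicate 1 or without replicate 3 of every group and 9 without replicate 2. At 0.4 and 2 µM 0 of 36 differed, 0% of all genes were called in edgeR, 873 and 1551 genes had an unadjusted p under 0.05, and DESeq2 called 0 synthetases.

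Catechin passed for a few genes at the lower doses. At 0.4 µM SARS (0.58 ± 0.17, edgeR adjusted p = 0.0381), GARS (0.37) and TARS (0.34) rose and YARS2 (-0.52) fell, where 4.66% of all genes were called. At 2 µM SARS (0.56 ± 0.17, edgeR adjusted p = 0.0432), DARS (0.39) and CARS2 (0.38) rose, where 8.06% of all genes were called. Of the 36 synthetases 8.33% were called at 2 µM, close to the share over all genes. SARS had 108, 121 and 126 CPM at 0.4 µM, 132, 110 and 106 CPM at 2 µM and 97.2, 112 and 101 CPM at 10 µM. At 10 µM 0 of 36 passed (0.0655% of all genes called in edgeR, 2172 with an unadjusted p under 0.05, and 0 synthetases in DESeq2). The mitochondrially encoded share of the 9 catechin libraries ran from 0.486 to 10.8%, and its part in these values was not tested. Each of these 7 calls was lost when some single libraries were left out, SARS at 0.4 µM with any of the 6. Without the libraries under 5%, 12 genes passed at 0.4 µM (8 higher and 4 lower) and 10 at 2 µM (all higher), with 1 library left in each group, assumed to vary like the other groups, and 4 passed at 10 µM (RARS, SARS and TARS higher and YARS2 lower). Without those high in COL1A2, 4 passed at 0.4 µM, 7 at 2 µM and 0 at 10 µM.

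Gallic acid at 0.4 and 2 µM passed for 0 of 36 genes in edgeR, where 0.0709 and 0.611% of all genes were called and 1714 and 4580 had an unadjusted p under 0.05. DESeq2 called 1 at 2 µM, TARS. The group at 2 µM held 1 library under 5% mitochondrially encoded counts and the group at 0.4 µM none. Leaving out all 18 such libraries of the batch gave 6 genes higher at 2 µM (AARS, GARS, MARS, RARS, SARS and TARS) and 6 higher at 0.4 µM (DARS, GARS, RARS, SARS, TARS and WARS2). Leaving out the libraries high in COL1A2, 1 in each of these groups, gave 0 at both doses.

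Paeonol, paeoniflorin, albiflorin and benzoic acid changed no synthetase past the threshold at any dose in edgeR or in DESeq2. At 0.4, 2 and 10 µM, 0.278, 0.0873 and 0.126% of all genes were called with paeonol in edgeR, and 0.136, 0.229 and 0.191% with paeoniflorin. With albiflorin 0.0382% were called at each dose, and with benzoic acid 0.0327, 0.0218 and 0.0273%. Between 449 and 3824 genes had an unadjusted p under 0.05 in these 12 comparisons. Their cytosolic sums lay between 3045 and 3256 CPM together with those of gallic acid and catechin, against 2953 ± 30 CPM in vehicle. Without replicate 1 of paeonol at 10 µM, 2 genes passed. With the libraries under 5% left out, paeonol had 1 gene higher at each dose (TARS at 10 µM, RARS at 0.4 and 2 µM), paeoniflorin had HARS and RARS higher at 0.4 and 10 µM, albiflorin had RARS higher at 10 µM, and paeoniflorin at 2 µM and benzoic acid at every dose had 0. Paeoniflorin and albiflorin, isomeric glycosides, did not differ past the threshold in any synthetase at matched dose, where 0% of all genes were called in edgeR, 456 to 1152 had an unadjusted p under 0.05 and DESeq2 called 0 synthetases. At 10 µM their differences (paeoniflorin minus albiflorin) ran from -0.35 for WARS (95% interval -1.13 to 0.43) to 0.33 for PARS2 (-0.01 to 0.68). In all, 9 related pairs of groups were compared. The triterpene pair and the glycoside pair also had 0 synthetases past the threshold at every dose without the libraries under 5% and without those high in COL1A2.

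Over the 24 ingredient groups WARS had the widest range of log2 change among the cytosolic genes, from -0.80 to 0.49, and it passed in none of them. RARS ranged from 0.04 to 0.33 and passed in none, although both passed in some groups without the libraries under 5%, and the mitochondrial gene YARS2 ranged from -0.52 to -0.03.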

How the data were processed

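Per the labels' protocols, libraries were prepared from total RNA with the MGIEasy RNA Directional Library Prep Kit. The values analysed were the authors' expected counts for each gene. The submitters' processing notes name RSEM 1.3.3, STAR, Trim Galore and FastQC, and the build GRCh38 (hg38). Whether strand entered the counting is not given in the sources used here, so antisense and overlapping genes are uncertain, as are paralogs, because RSEM shares reads among the genes they match. Of these deposited expected counts, 89.5% were whole (tolerance 1e-09), and all were rounded. No libraries held identical values (0 pairs).

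The batches were fitted separately, each over all of its groups and without covariates, in edgeR 4.0.16 (R 4.3.3), with TMM scaling, filterByExpr, the quasi-likelihood F-test and Benjamini-Hochberg adjustment over all genes tested, at a threshold of 0.05. The first batch had 16854 genes and 14 residual degrees of freedom, the second 18324 and 50. The design gave 42 comparisons: each treatment and dose against the vehicle of its batch, ethanol against water extract, and 3 pairs of related compounds, at matched dose. CPM values use TMM-adjusted library sizes. Levels between genes were compared per kilobase of exonic length from GENCODE v29, which also gave gene positions, and promoter sequences came from RefSeq (GRCh38.p14). The scripts were tested on simulated counts.

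The members and gene lists were chosen with earlier results of these data known. In comparisons with 5 or more members past the threshold, up to 12 cytosolic and 8 mitochondrial ones were named by size of change, and all where fewer passed, with per-library values for at most 12 members. From each list up to 4 genes of smallest adjusted p were named in the comparisons with the most members called, and others were followed there. The 10 lists were complex scaffold, tRNA export, mitochondrial translation factors, stress kinases, ATF4 targets, chaperones, mitochondrially encoded mRNAs and epithelial, fibroblast, and blood or endothelial markers. Alternatives were DESeq2 1.42.0 (Wald test, or its size factors in edgeR), no filter on low counts, only the groups compared, a replicate block, each replicate left out, and libraries under 5% mitochondrially encoded counts or above 100 CPM of COL1A2 left out. Over all genes, same-numbered libraries did not deviate together against vehicle (correlations -0.06 to 0.09). This does not settle whether the numbers pair treated with vehicle libraries. Between treated groups the correlations ran from -0.46 to 0.41.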

Additional observations from a re-analysis of the deposited data

Results flagged for a closer look

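At 500 µg/mL the ethanol and water extracts differed past the threshold in 19 cytosolic and 14 mitochondrial synthetases, by a direct test of the difference. GARS (0.39 on the log2 scale, ethanol against water extract) and SARS (0.57) had opposite directions against vehicle. GARS changed by 0.20 with the ethanol and -0.20 with the water extract, and SARS by 0.31 and -0.26 in the same order. Against the same vehicle libraries, both genes had log2 changes below 0 in 5 of the 6 extract groups, lower doses of the ethanol extract included. At 100 µg/mL 1 cytosolic synthetase differed between the extracts, VARS. Gallic acid and benzoic acid at 10 µM differed in 5 cytosolic synthetases. The 6 genes IARS, LARS, MARS, NARS, TARS and YARS were lower with ethanol extract at 500 µg/mL and higher with both triterpenes at 10 µM. These came from different batches with their own vehicle, and the difference was not tested.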

How the results depend on the processing

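The 119 named gene values were refitted with single libraries left out, with DESeq2's size factors and with the replicate block. Of these 952 refits, 812 kept their direction and passed the threshold, 140 missed it and 0 changed direction. The other alternatives are not among these refits and were followed through the counts of called synthetases. DESeq2's size factors moved no count of called synthetases by over 1.5 times. The counts for both triterpenes at 10 µM, and for ethanol extract at 500 µg/mL against vehicle and against water extract, stayed within 1.5 times under every other alternative with 1 exception. Without libraries under 5% mitochondrially encoded counts, oleanolic acid at 10 µM called 17, not 11.

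Fitting only the groups compared gave 6 cytosolic calls for ethanol extract at 100 µg/mL (10 in the full fit), 0 at 20 µg/mL (2), 1 mitochondrial call for water extract at 100 µg/mL (2), 3 cytosolic calls at 20 µg/mL (5) and 0 for the 2 extracts set against each other at 100 µg/mL (1). For ingredients at 10 µM it gave 4 for albiflorin, 3 for benzoic acid and 4 for catechin (0 each), 0 for gallic acid (6), 49 over the 16 comparisons at 0.4 or 2 µM (11) and 0 over the 9 related comparisons (5). Without a filter, water extract at 100 µg/mL had 1 mitochondrial call, the 2 extracts against each other 0, gallic acid at 10 µM 2, the lower doses 0 and the related comparisons 1. DESeq2's Wald test gave 1 mitochondrial call for water extract at 100 µg/mL, 2 for the 2 extracts set against each other at 100 µg/mL and 28 at the lower doses. Without libraries high in COL1A2 the lower doses gave 21. Without libraries under 5% mitochondrially encoded counts they gave 64, albiflorin and paeonol at 10 µM 1 each, paeoniflorin 2, catechin 4, gallic acid 0 and the related comparisons 1. The cause of these shifts was not tested.

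With the replicate block, mitochondrial counts were 1 for ethanol extract at 100 and 20 µg/mL and for water extract at 500 µg/mL (0 each), and cytosolic counts were 4 for ethanol extract at 20 µg/mL and 2 for the 2 extracts set against each other at 100 µg/mL. It changed no other count by over 1.5 times. Against vehicle, same-numbered libraries had correlations of deviations over all genes from -0.06 to 0.09. In the first batch, however, the ratio of cytosolic to mitochondrial sums was highest in replicate 3 of every group, vehicle included. It was 5.61, 5.68 and 5.8 in vehicle replicates 1 to 3, and 5.18, 5.42 and 5.72 with ethanol extract at 20 µg/mL. Whether the numbers pair treated with vehicle libraries is thus not settled. Between related compounds the correlations varied more. They were 0.33, 0.13 and 0.19 for paeoniflorin against albiflorin at 2 µM and 0.25, 0.10 and 0.41 for hederagenin against oleanolic acid at 10 µM. For gallic acid against benzoic acid at 2 µM they were -0.25, 0.12 and -0.46. With the block the 9 related comparisons still called 5 synthetases in all.

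Leaving out 1 library at a time gave cytosolic counts of 6 to 9 for ethanol extract at 100 µg/mL, 0 to 3 at 20 µg/mL, 2 to 6 for water extract at 100 µg/mL, 1 to 5 at 20 µg/mL and 0 to 1 for the 2 extracts set against each other at 100 µg/mL. Mitochondrial counts were 0 to 1 for ethanol extract at 20 µg/mL, 0 to 2 for water extract at 500 µg/mL, 1 to 2 at 100 µg/mL and 0 to 1 at 20 µg/mL. Gallic acid at 10 µM gave 0 to 13 and paeonol 0 to 2. Leaving out 1 replicate number gave 0 to 4 for the lower doses and 0 to 9 for the related comparisons. The wide spread between replicates of the second batch limits what it can show.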
